A study of Mus musculus with 9 samples.

Results

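The regions described here are places in the genome of mouse MLL-AF9 leukaemia cells. At each, a peak of the homeodomain protein MEIS1 was listed for ethanol-treated cells and not for cells treated to activate TGIF1. The regions were chosen by presence and absence of peaks in 4 MEIS1 lists. Peaks overlapping by at least 1 bp were merged, and a region was taken when it held a peak from both MEIS1 libraries of ethanol-treated cells and from neither MEIS1 library of cells given 4-hydroxytamoxifen (4-OHT). Of 55113 merged MEIS1 regions, 664 met this rule, and they are called EtOH-only regions below. They made up 2.92% (exact 95% interval 2.71 to 3.15%) of the 22731 merged regions with a peak from both EtOH libraries, called reproducible EtOH regions.

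The cells were c-kit+ bone marrow cells of C57BL/6 origin, transformed with the fusion oncogene MLL-AF9 and transduced with pMIG-TGIF1-ER, which encodes TGIF1 fused to the estrogen receptor. Every group carried this construct. Chromatin was precipitated with a Meis antibody or with the TGIF antibody H-172, from cells given ethanol (EtOH) or treated with 4-OHT for 20 h, with 2 libraries for each antibody and treatment. No library came from 4-OHT-treated cells lacking the construct, so an effect of 4-OHT and an effect of TGIF1-ER activity cannot be told apart. Whether the 2 libraries of a group stem from different cultures is not stated in the labels, and the spread between them may be technical. An IgG library of the series was not analysed here.

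MEIS1 and TGIF1 both belong to the TALE class of homeodomain proteins, whose members recognise closely related short DNA sequences. MEIS1 binds DNA together with HOX and PBX proteins and is a well-known driver of self-renewal in MLL-rearranged leukaemia. TGIF1 lacks the surface for HOX partners and is known as a repressor that recruits corepressors and restrains SMAD and retinoid signalling. The question behind the comparison is where in the genome each protein sits when TGIF1 activity is raised in cells that depend on MEIS1.

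The lists gave positions, lengths and summits (the point of highest signal in a peak) but no height, score or read number. Depth was therefore unknown, and peak length was the only measure of size. List length differed widely, with 21173 to 48829 peaks in the MEIS1 lists and 592 to 26932 in the TGIF1 lists. An absent peak means that none was listed, and it does not show that the protein was gone.

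Absence after 4-OHT was limited mainly by the longer of the 4-OHT lists. Of the 22731 reproducible EtOH regions, 6784 (29.8%) had no peak in MEIS1 4-OHT replicate 1, the shortest MEIS1 list, and 761 (3.35%) had none in MEIS1 4-OHT replicate 2, the longest. A peak in replicate 2 but not in replicate 1 was found at 6120 regions, the reverse at 97, both peaks at 15850, and neither at the 664 EtOH-only regions. The 15850 regions with a peak in all 4 MEIS1 libraries are called retained regions. Without MEIS1 4-OHT replicate 2 the rule would have taken 29.9% of the reproducible EtOH regions, without MEIS1 EtOH replicate 1 it would have taken 10.9% of the regions of the remaining EtOH library, and without MEIS1 EtOH replicate 2 it would have taken 8.36%. In the mirror case, 640 regions had a peak from both 4-OHT libraries and from neither EtOH library, and they are called 4-OHT-only regions.

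EtOH-only regions were built from short MEIS1 peaks. In MEIS1 EtOH replicate 1 their peaks had a median length of 308 bp (quartiles 260.8 and 361.2 bp), against 393 bp (322 and 482 bp) at retained regions. In MEIS1 EtOH replicate 2 the median was 550 bp (quartiles 492 and 614.2 bp), against 712 bp (609 and 902 bp). Both libraries thus placed these peaks toward the short end of the list, with a median length rank at the 70.9th and 73.8th percentile counted from the longest peak. Only 162 and 128 of the 664 (24.4% and 19.3%) were in the upper 50% of their list by length. Peaks of the 4-OHT-only regions were also short within the 4-OHT lists. There 122 of 640 (19.1%) in replicate 1 and 105 of 640 (16.4%) in replicate 2 were in the upper 50%. Short peaks were thus not particular to the EtOH-only regions. Length belongs to the contrast that chose the regions, so these values describe them and are not tested.

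**Figure D1:**
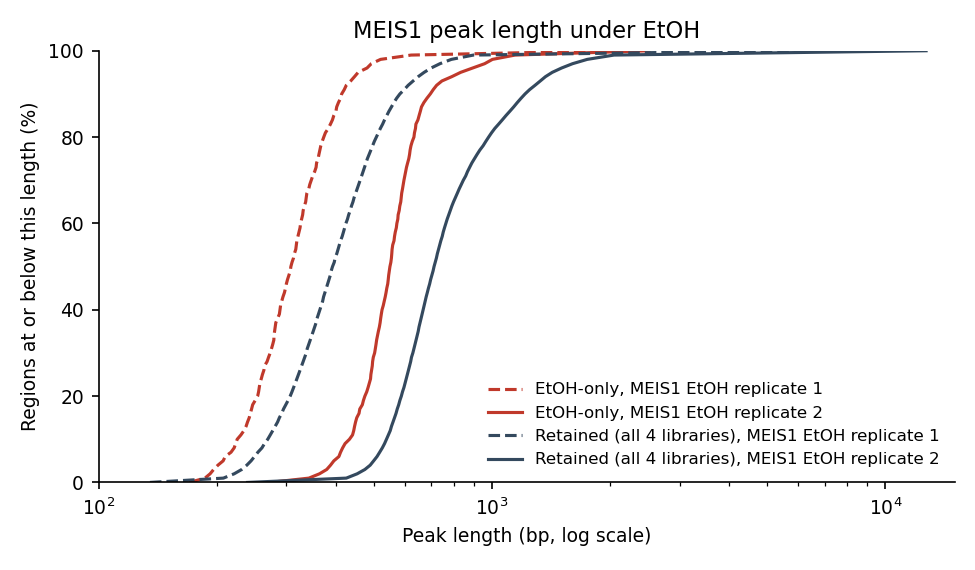
Cumulative share of regions (vertical axis, %) against the length of their MEIS1 peak (horizontal axis, bp, log scale) in the EtOH libraries, for the 664 EtOH-only and the 15850 retained regions. In each library the curve of the EtOH-only regions lies to the left, with medians of 308 against 393 bp in replicate 1 (dashed) and 550 against 712 bp in replicate 2 (solid).

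Peak length divided the reproducible EtOH regions steeply. They were put into 5 classes of equal size by the mean of their length ranks in the EtOH lists. EtOH-only regions made up 12 of 4547 (0.264%, exact 95% interval 0.136 to 0.461%) in the class of longest peaks and 30 of 4546 (0.660%) in the next. In the middle class they were 85 of 4546 (1.87%), then 174 of 4546 (3.83%), and 363 of 4546 (7.99%, exact 95% interval 7.21 to 8.81%) in the class of shortest peaks. More than 50% of all EtOH-only regions therefore came from the shortest class. Over the 664 regions, the Spearman correlation between the peak lengths of EtOH replicates 1 and 2, which share the described cell type and the antibody, was 0.278. It was taken over mostly short peaks and was not computed for other sets of regions.

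These short peaks had summits close together in the EtOH libraries. Their summits in replicates 1 and 2 lay a median of 21 bp apart (quartiles 9 and 40 bp), and 557 of 664 (83.9%) were within 50 bp. At retained regions the median was 14 bp, and 87.2% were within 50 bp. The 4-OHT-only regions gave 18 bp and 86.4% between the 4-OHT libraries. In each set the rule required overlapping peaks, which limits how far apart the summits can lie. These distances therefore describe the regions and are not tested. All but 1 of the EtOH-only regions held a single peak in MEIS1 EtOH replicate 1, and all held a single peak in replicate 2.

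TGIF1 was then looked up at the EtOH-only regions. The TGIF1 lists took no part in choosing them. Under EtOH, a TGIF1 peak overlapped 10 of 664 (1.51%, exact 95% interval 0.724 to 2.75%) in TGIF1 EtOH replicate 1 and 2 of 664 (0.301%, 0.0365 to 1.08%) in replicate 2. The share over all reproducible EtOH regions was 6.92% and 1.39%. After induction, a TGIF1 peak overlapped 91 of 664 (13.7%, exact 95% interval 11.2 to 16.6%) in TGIF1 4-OHT replicate 1 and 199 of 664 (30.0%, 26.5 to 33.6%) in replicate 2. Over all reproducible EtOH regions these shares were 29.9% and 52.3%. EtOH-only regions were therefore below the background share in each of the 4 TGIF1 libraries. The background includes regions merged with 4-OHT peaks, which can be wider, and the part of width was not tested.

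Between treatments, the mean share of EtOH-only regions with a TGIF1 peak was 0.904 ± 0.852% (SD, n = 2) under EtOH and 21.8 ± 11.5% (SD, n = 2) under 4-OHT. Both induced libraries were above both EtOH libraries, a difference of 20.9 percentage points. A two-sided exact permutation test over libraries gave p = 0.33, the smallest value that 2 against 2 allows. The difference was 12.8 without TGIF1 4-OHT replicate 2 and 12.4 without MEIS1 EtOH replicate 2, and it was 33.0 without MEIS1 4-OHT replicate 2. The TGIF1 lists also grew as a whole after induction, so the difference is not particular to these regions.

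**Figure D2:**
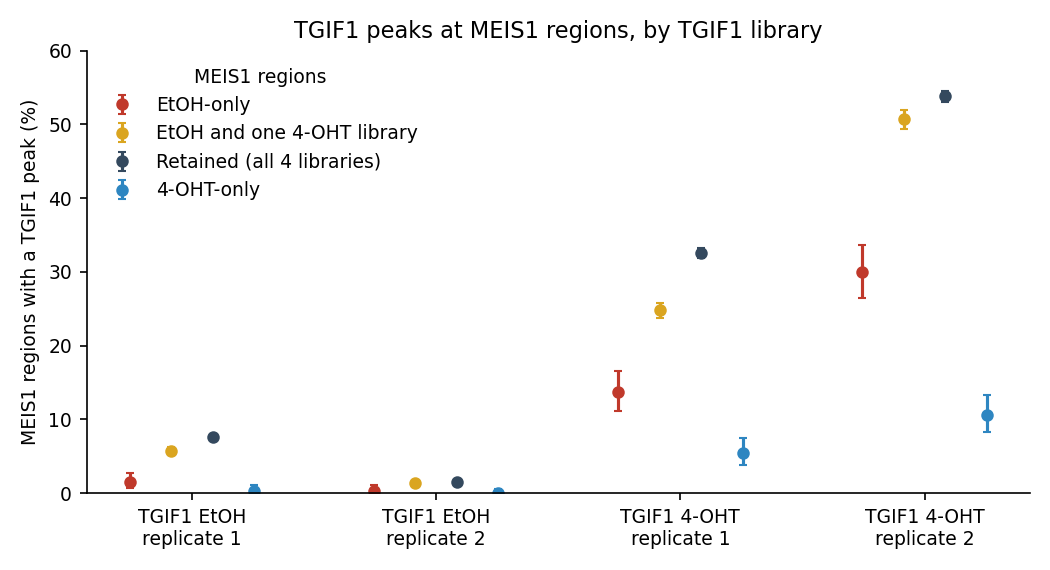
Share of MEIS1 regions with a TGIF1 peak (vertical axis, %) in each TGIF1 library (horizontal axis), for 4 sets of MEIS1 regions. Points are shares and bars are exact 95% intervals for counting error. EtOH-only regions (13.7 and 30.0% after induction) lie between the 4-OHT-only regions (5.47 and 10.6%) and the retained regions (32.6 and 53.8%).

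Sorted by TGIF1, the 664 EtOH-only regions fell into 89 where both induced TGIF1 libraries had a peak (13.4%, against 29.5% of all reproducible EtOH regions), 2 with a peak in replicate 1 alone, 110 with a peak in replicate 2 alone and 463 with none. A peak in at least 1 TGIF1 4-OHT library was thus present at 201 (30.3%), against 52.7% of all reproducible EtOH regions. At these 201 places a TGIF1 peak was listed under 4-OHT, the treatment in which no MEIS1 peak was. The 463 regions had no peak in any TGIF1 list (69.7%, exact 95% interval 66.1 to 73.2%, against 47.3% of all reproducible EtOH regions). They lay a median of 12753 bp from the nearest TGIF1 4-OHT peak, and 45 of them were within 1 kb of one. This distance was not measured for other MEIS1 regions without TGIF1.

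Retained regions carried TGIF1 more often than EtOH-only regions in both induced libraries. The shares at retained regions were 32.6% (exact 95% interval 31.9 to 33.3%) in TGIF1 4-OHT replicate 1 and 53.8% (53.0 to 54.6%) in replicate 2. EtOH-only minus retained was -18.9 percentage points in replicate 1 and -23.9 in replicate 2 (mean -21.4 ± 3.52, SD, n = 2). Retained regions were merged from peaks of all 4 MEIS1 lists, so the stretch searched for TGIF1 can be wider there. With TGIF1 summits required within 50 bp of a MEIS1 summit, the shares in replicate 1 were 11.9% (EtOH-only) and 24.2% (retained). In replicate 2 they were 23.6% and 38.9%, and the mean difference was -13.8 percentage points. The part of region width was not tested. A two-sided exact sign permutation over 2 libraries cannot go below 0.5, so that test could not separate the sets. The mean difference by overlap shrank to -6.93 without MEIS1 4-OHT replicate 2.

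The difference was smaller at matched peak length. When the retained regions were weighted to the 5 length classes as the EtOH-only regions fill them, their TGIF1 share became 18.2% in TGIF1 4-OHT replicate 1 and 34.5% in replicate 2. EtOH-only minus retained was then -4.52 and -4.53 percentage points. In the class of shortest peaks, 44 of 363 EtOH-only regions (12.1%, exact 95% interval 8.95 to 15.9%) and 279 of 2325 retained regions (12%, 10.7 to 13.4%) carried TGIF1 in replicate 1. For replicate 2 the counts were 90 of 363 (24.8%, 20.4 to 29.6%) and 581 of 2325 (25%, 23.2 to 26.8%). Shares in the shortest class therefore differed by less than counting error in both libraries.

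In the longer classes the pattern differed between the TGIF1 libraries. In the middle class, TGIF1 4-OHT replicate 1 was present at 13 of 85 EtOH-only regions (15.3%, exact 95% interval 8.40 to 24.7%) and at 29.6% (28.0 to 31.2%) of the retained, with intervals that did not meet. For replicate 2 the values were 35 of 85 (41.2%, 30.6 to 52.4%) and 51.3% (49.5 to 53.0%), with intervals that overlapped. The class of the second longest peaks showed the reverse. There replicate 1 was present at 10 of 30 EtOH-only regions (33.3%, 17.3 to 52.8%) and 36.3% (34.7 to 37.9%) of the retained, and replicate 2 at 11 of 30 (36.7%, 19.9 to 56.1%) and 60.4% (58.8 to 62.1%), where only the intervals of replicate 2 did not meet. In the class of longest peaks neither library's intervals met, with TGIF1 at 1 of 12 (8.33%, 0.211 to 38.5%) and 5 of 12 EtOH-only regions (41.7%, 15.2 to 72.3%) against 52.9% (51.3 to 54.5%) and 78.1% (76.7 to 79.4%) of the retained, but it held few EtOH-only regions. In the class next to the shortest the intervals overlapped in both libraries, at 13.2% (8.57 to 19.2%) against 20.1% (18.7 to 21.7%) and 33.3% (26.4 to 40.9%) against 38.7% (36.9 to 40.5%). Regions are not replicates, and these intervals cover counting error within the libraries only.

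**Figure D3:**
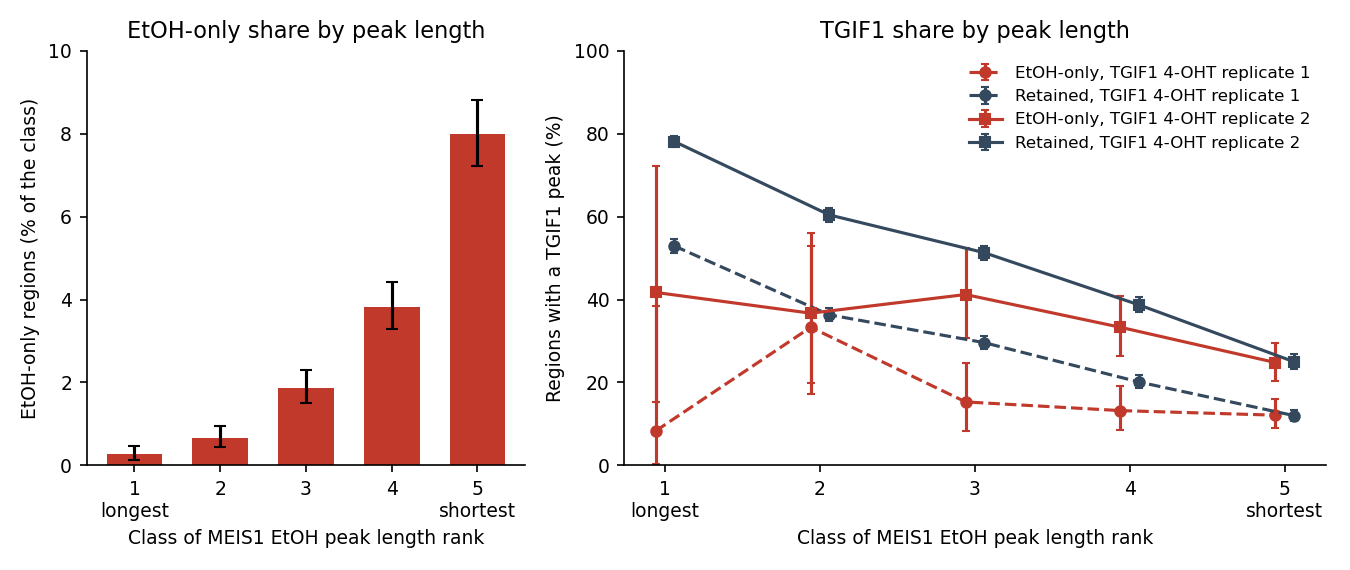
Left, EtOH-only regions as a share of the reproducible EtOH regions (vertical axis, %) in each of 5 classes of MEIS1 EtOH peak length rank (horizontal axis). Right, share with a TGIF1 peak (vertical axis, %) in the same classes for EtOH-only and retained regions. Bars are exact 95% intervals for counting error. The EtOH-only share climbs from 0.264 to 7.99%, and the TGIF1 shares meet in the shortest class at 12.1 against 12% and 24.8 against 25%.

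Against the mirror set the order was the other way round. TGIF1 peaks were present at 35 of 640 4-OHT-only regions (5.47%, exact 95% interval 3.84 to 7.52%) in TGIF1 4-OHT replicate 1 and at 68 of 640 (10.6%, 8.35 to 13.3%) in replicate 2. EtOH-only minus 4-OHT-only was 8.24 and 19.3 percentage points (mean 13.8 ± 7.86, SD, n = 2). The part of peak length in this difference was not tested, since the peaks of each set come from different MEIS1 lists. This order depended on the MEIS1 libraries. It turned to -10.2 without MEIS1 EtOH replicate 2, and it was 28.9 without MEIS1 4-OHT replicate 2 and 8.24 without TGIF1 4-OHT replicate 2.

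Where TGIF1 did overlap an EtOH-only region, its summit lay close to that of MEIS1. The median distance between the TGIF1 4-OHT summit and the MEIS1 EtOH summit ranged from 20 to 27 bp over the 4 combinations of a MEIS1 library with a TGIF1 library, and 68.3 to 80.2% of these summits were within 50 bp. At retained regions the medians were 25 to 29 bp and the shares 63.3 to 67.8%. In each of the 4 combinations the EtOH-only regions had the larger share within 50 bp. For TGIF1 4-OHT replicate 1 and MEIS1 EtOH replicate 2, for example, 73 of 91 EtOH-only regions (80.2%) and 3500 of 5166 retained regions (67.8%) met this limit. Peaks at EtOH-only regions were also shorter. Retained regions were merged over all 4 MEIS1 lists and can take in TGIF1 peaks farther from the MEIS1 summit. These shares were not compared at matched peak length or region width, so the part of either in the difference was not tested. At 4-OHT-only regions, measured from MEIS1 4-OHT summits, the shares within 50 bp were 58.8 to 65.7%.

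TGIF1 peaks at EtOH-only regions were on the short side of their own lists. In TGIF1 4-OHT replicate 1 their median was 409 bp (n = 91) against 456.5 bp at retained regions and 438 bp over the whole list. In replicate 2 it was 536 bp (n = 199) against 626 bp and 567 bp. The upper 50% of the TGIF1 list by length held 33 of 91 (36.3%) and 82 of 199 (41.2%) of these peaks, and 56.8% and 60.7% of those at retained regions. Both proteins thus had shorter peaks here than at retained regions, in both libraries of each. TGIF1 peaks at 4-OHT-only regions were shorter still, with medians of 383 bp (n = 35) and 506.5 bp (n = 68). Short TGIF1 peaks were thus not particular to EtOH-only regions.

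**Figure D4:**
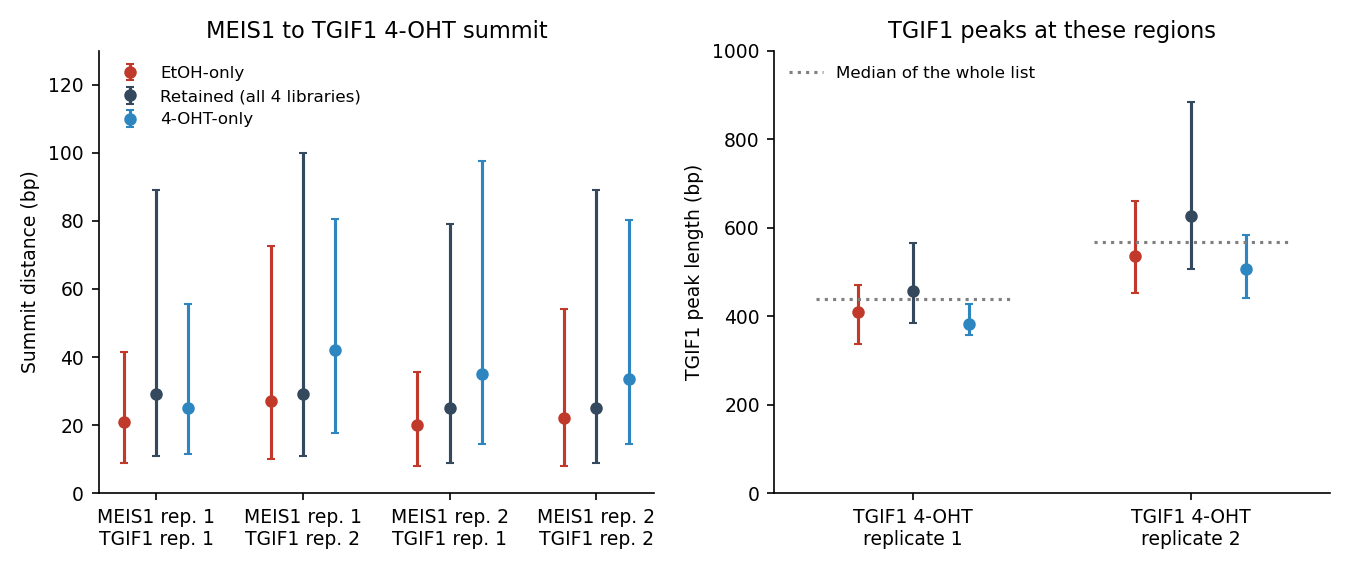
Left, distance (vertical axis, bp) between MEIS1 and TGIF1 4-OHT summits for each pair of libraries (horizontal axis; MEIS1 EtOH libraries for EtOH-only and retained regions, MEIS1 4-OHT libraries for 4-OHT-only regions). Right, length of the TGIF1 peaks (vertical axis, bp) at the same sets, with the median of the whole list as a dotted line. Points are medians and bars are quartiles over regions. EtOH-only regions have summit medians of 20 to 27 bp and TGIF1 peaks of 409 and 536 bp, below the list medians of 438 and 567 bp.

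Among the EtOH-only regions, the median MEIS1 peak was slightly longer where TGIF1 was listed. The median MEIS1 peak length at the 89 regions with both TGIF1 4-OHT peaks was 323 bp in MEIS1 EtOH replicate 1 and 556 bp in replicate 2. It was 302 and 544 bp at the 463 regions without TGIF1, and 315.5 and 571.5 bp at the 112 with a TGIF1 peak in 1 library. The median length rank was at the 65.3rd and 71.9th percentile with both TGIF1 peaks and at the 73.0th and 75.4th without TGIF1, counted from the longest peak. The share with a TGIF1 peak was also read by length class, from longest to shortest. In 4-OHT replicate 2 it was 41.7, 36.7, 41.2, 33.3 and 24.8% of EtOH-only regions. In 4-OHT replicate 1 it was 8.33, 33.3, 15.3, 13.2 and 12.1%, so it fell steadily in neither library. The longest and second longest classes held only 12 and 30 EtOH-only regions. At retained regions the share fell from class to class in both libraries, from 52.9 to 12% in replicate 1. A lower share at shorter peaks was thus not particular to EtOH-only regions. These differences within the EtOH-only regions were not tested.

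All 11 EtOH-only regions with a TGIF1 peak under EtOH also had one after induction, and 10 of the 11 had it in both 4-OHT libraries. This was so at nearly all MEIS1 sites, since of 1608 reproducible EtOH regions with a TGIF1 peak under EtOH only 6 had none under 4-OHT. The only region of the 664 with a peak in all 4 TGIF1 lists was chr15:81223350-81223860 (mm9, 511 bp). There the TGIF1 peak was 330 and 224 bp long under EtOH and 581 and 1003 bp under 4-OHT, and the nearest MEIS1 4-OHT peak was 6024 bp away. The region chr9:86846853-86847468 carried TGIF1 in EtOH replicate 1 (347 bp) and in both induced libraries (629 and 623 bp), and its nearest MEIS1 4-OHT peak was 18131 bp away. At chr7:150244138-150244768 the MEIS1 summits of the EtOH libraries were 3 bp apart, and TGIF1 peaks were listed in EtOH replicate 1 (297 bp) and in both induced libraries (555 and 741 bp). At these 3 sites TGIF1 was listed under both treatments and MEIS1 under EtOH alone.

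By the ranking used for leading regions, which takes the longest MEIS1 EtOH peaks first, the leading EtOH-only region was chr15:98999807-99002296. Its MEIS1 peak was 2049 bp in EtOH replicate 1 and 2490 bp in replicate 2, no TGIF1 list held a peak there, and the nearest MEIS1 4-OHT peak was 14320 bp away. The second was chr7:71220432-71222937, with MEIS1 peaks of 740 and 2506 bp, summits 1054 bp apart and a TGIF1 peak of 1541 bp in 4-OHT replicate 2 only. The third, chr17:24232675-24234140, had MEIS1 peaks of 1078 and 1465 bp, no TGIF1 peak and no MEIS1 4-OHT peak within 21953 bp. Of the 10 leading regions, 7 had no peak in any TGIF1 list, near the 69.7% of all EtOH-only regions, and 3 had a TGIF1 4-OHT peak. The first 2 were also the longest merged EtOH-only regions, at 2490 and 2506 bp.

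The leading region with TGIF1 in both induced libraries was chr19:25197443-25198276, which was also number 10 of all EtOH-only regions, with MEIS1 peaks of 627 and 812 bp and TGIF1 peaks of 633 and 766 bp. It also held a TGIF1 peak of 297 bp in EtOH replicate 1. Next came chr15:78429369-78430573, with MEIS1 peaks of 402 and 1205 bp whose summits were 2 bp apart and TGIF1 peaks of 675 and 1795 bp. A retained MEIS1 region lay 747 bp from it. At chr9:40152143-40153098 the MEIS1 summits were 4 bp apart, the TGIF1 peaks were 391 and 787 bp long, and the nearest MEIS1 4-OHT peak was 12905 bp away. Further regions of this kind were chr12:88579158-88579943, chr10:117192066-117193167 and chr11:6491006-6491901, each with both TGIF1 4-OHT peaks and no TGIF1 peak under EtOH.

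The rule turned on an overlap of 1 bp, but few regions lay near that limit. Just inside it, the 5 EtOH-only regions closest to a MEIS1 4-OHT peak were 7, 45, 48, 48 and 52 bp away, all from a peak of MEIS1 4-OHT replicate 2. The closest was chr14:52640073-52640585. A TGIF1 peak in 4-OHT replicate 2 was present at 4 of the 5, against 30.0% of all EtOH-only regions, but 5 regions are too few to compare. Just outside it, overlap was measured from the 22793 regions with a peak from both EtOH libraries before merging with 4-OHT peaks. The 5 of these with the least overlap shared 15, 23, 32, 96 and 212 bp with a MEIS1 4-OHT peak. In all, 11 of the 664 were within 100 bp of a MEIS1 4-OHT peak and 118 (17.8%) within 1 kb. Extending absence to 1 kb left 547 regions.

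EtOH-only regions lay among other MEIS1 sites, about as densely as retained regions did. The nearest other MEIS1 region of any list was a median of 4228.5 bp away (quartiles 1199.8 and 12165.8 bp), against 4268 bp (1256.5 and 12121.8 bp) for retained regions. It was within 10 kb for 470 of 664 (70.8%) and for 70.4% of the retained. The 4-OHT-only regions were farther from other MEIS1 sites, with a median of 8652.5 bp and 53.9% within 10 kb. To the nearest retained region the medians were 20289.5 bp for EtOH-only, 18586 bp for retained and 28711.5 bp for 4-OHT-only regions.

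**Figure D5:**
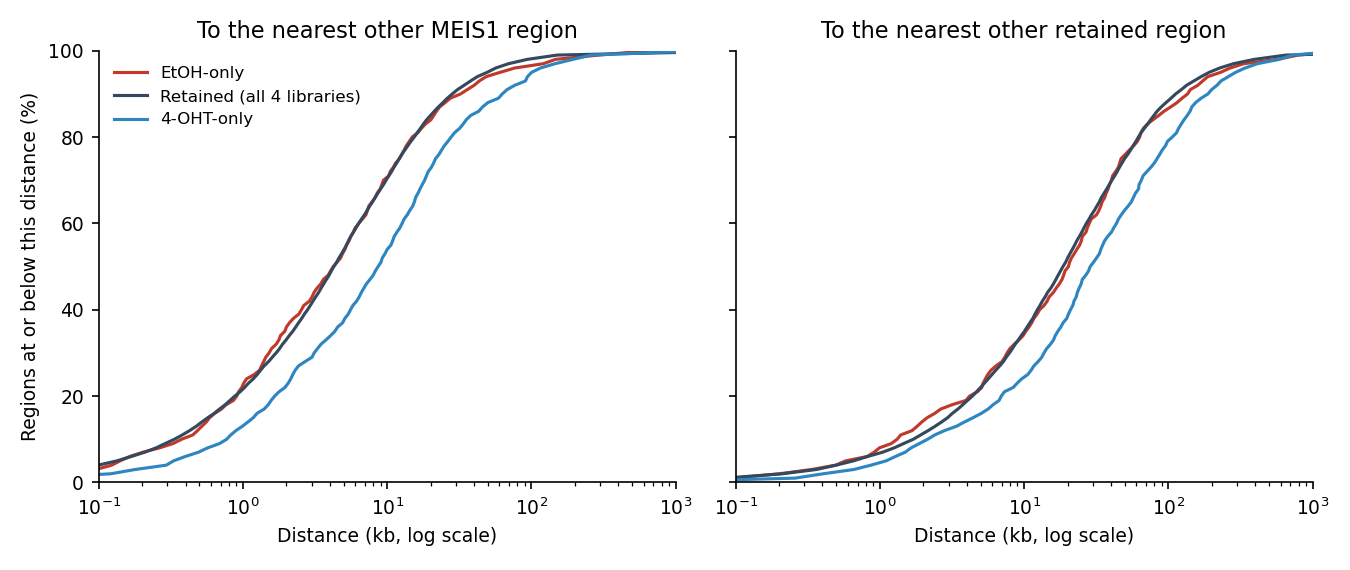
Cumulative share of regions (vertical axis, %) against the distance (horizontal axis, kb, log scale) to the nearest other MEIS1 region of any list (left) and to the nearest other retained region (right). The curves of EtOH-only and retained regions run together, with medians of 4228.5 and 4268 bp on the left, and the 4-OHT-only curve lies to the right at 8652.5 bp.

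The median distance from an EtOH-only region to the nearest other EtOH-only region was 681015.5 bp, and 26 regions (3.92%) had another within 10 kb. These formed 13 pairs and no larger cluster. The tightest pair spanned 1938 bp on chromosome 4, from 122531984 to 122533921, and the next spanned 2145 bp on chromosome 12, from 108386712 to 108388856. The remaining EtOH-only regions had no other within 10 kb. No set of similar size was measured in the same way, so whether this spacing is particular to them was not tested.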

How the data were processed

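The submitters' processing notes name mm9 as the build and Bowtie 0.12.7 as a tool, and per the file headers the MEIS1 4-OHT replicate 2 list comes from MACS 1.4.2. For the other lists the caller, and for all lists the control, are not given in the sources. Each of the 8 deposited lists covers 1 library and holds chromosome, start, end, length and summit, so the depth per sample is unknown.

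MEIS1 peaks were merged and TGIF1 peaks assigned at an overlap of at least 1 bp. Clopper-Pearson (exact) 95% intervals take in counting error alone. Libraries were compared with exact permutation tests. Named regions had the best mean length rank in the MEIS1 EtOH lists. The regions, lists and rules were chosen with earlier results of these data known. Further length weightings were added after seeing the data. Planned motif and gene comparisons were not run, because an mm9 genome or annotation was not used here. Python 3.11.15, numpy 2.4.6, pandas 2.3.3 and scipy 1.17.1 were used, and the code was tested on simulated data and checked against bedtools 2.31.1.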

Additional observations from a re-analysis of the deposited data

How the results depend on the processing

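The EtOH-only share (2.92%) was 3.67% with peak centres within 200 bp, 2.68% with a reciprocal overlap of 50%, 5.92% in the upper 50% of each list by length, 4.86% with MEIS1 lists of 21173 peaks, 2.41% with absence extended to 1 kb, and 3.35 to 29.9% leaving out single MEIS1 libraries. EtOH-only minus retained in TGIF1 share (-21.4 percentage points) was negative in all 16 alternatives. It was -17.2 with peak centres within 200 bp, -13.8 with TGIF1 summits within 50 bp, -4.53 weighted to 5 length classes, and -29.1 to -6.93 leaving out single libraries. Chosen after seeing the data, weighting to 20 classes gave -3.51, leaving out the longest class -3.86, and weighting with summits within 50 bp -4.76. EtOH-only minus 4-OHT-only (13.8) was -10.2 to 28.9 leaving out single libraries, reversed without MEIS1 EtOH replicate 2. The ratio of EtOH-only to retained peak length (0.783) was 0.771 to 0.867. The median distance to a MEIS1 4-OHT peak (5275 bp) was 15910.5 bp for replicate 1 alone. The cause of these shifts was not tested. The 14 alternatives for the 4-OHT minus EtOH difference kept its sign, at 12.4 to 33.9 percentage points. The planned motif and gene-position alternatives were not run. Without scores or depth, weak peaks could be told from strong ones by length alone.

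With the replicate number as a block, the 4-OHT minus EtOH difference in TGIF1 share at EtOH-only regions was 20.9 percentage points (12.2 in replicate 1, 29.7 in replicate 2; exact sign permutation p = 0.5, the smallest possible). Nothing in the labels pairs libraries by number.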

Other observations

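By chromosome, EtOH-only regions made up from 1.62% of the reproducible EtOH regions on chromosome 13 (20 of 1231, exact 95% interval 0.995 to 2.50%) to 5.04% on chromosome X (12 of 238, 2.63 to 8.64%) and 4.27% on chromosome 17 (45 of 1054, 3.13 to 5.67%). Chromosome 1, with 26 of 1445 (1.80%, 1.18 to 2.63%), was next to lowest. All 20 chromosomes in the lists held EtOH-only regions. These differences between chromosomes were not tested.

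Regions listed by MEIS1 in both EtOH libraries and in 1 of the 4-OHT libraries (6217) lay between EtOH-only and retained regions in TGIF1 share, at 24.8% in TGIF1 4-OHT replicate 1 and 50.7% in replicate 2. Their MEIS1 peaks were also of intermediate length, with medians of 336 and 633 bp in the EtOH libraries.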
